A study of Mus musculus with 8 samples.

Results

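Replication-dependent histone genes in platelet RNA were the genes whose GENCODE M21 symbol begins with Hist1h, Hist2h, Hist3h or Hist4h, the names of the 4 histone gene clusters. They were 70 of the 55487 genes measured. The deposited tables use newer symbols (H2bc4 for Hist1h2bc, H1f2 for Hist1h1c), so the genes were matched through their Ensembl identifiers. The tables' own symbols carry the old prefix in 9 of the 70: Hist1h2bq, Hist1h2br, Hist1h2bp, Hist1h4n, Hist1h4m, Hist1h2ao, Hist1h2al, Hist1h2an and Hist1h2ap. By class there were 6 linker histone H1 genes, 20 H2A, 19 H2B, 12 H3 and 13 H4 genes, of which 56 had the Hist1 prefix, 10 Hist2, 3 Hist3 and 1 Hist4, and 3 were annotated as pseudogenes.

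The libraries came from platelets of 8 male mice, 13 weeks old, 4 labelled wild type (WT) and 4 labelled Dnmt3a+/-, heterozygous for the de novo DNA methyltransferase gene Dnmt3a, and described as littermates. Platelets from cardiac blood were spun down out of the platelet-rich plasma, and Ter119 and CD45 beads took out red cells and leukocytes. Polyadenylated RNA was made into stranded libraries, 1 per mouse. How the Dnmt3a allele was made and which cells carry it are not given in the sources used here.

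Replication-dependent histone genes supply the core histones H2A, H2B, H3 and H4 and the linker histone H1 during S phase. Their mRNAs usually have no poly(A) tail: the 3′ end is cut just after a short conserved stem-loop that is bound by the stem-loop binding protein Slbp, guided by the U7 small nuclear RNA. Some of these genes also make longer, polyadenylated transcripts from signals downstream of the stem-loop, a form known from differentiated and non-dividing cells. Platelets have no nucleus and carry RNA from their parent cell, the megakaryocyte.

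The stem-loop was searched for in the GENCODE M21 transcript sequences (build GRCm38) by its 16-base consensus, the histone 3′ stem-loop. It was found in 46 of the 70 genes. Only annotated transcripts were searched, not the genome beyond them. In 16 genes without a match the model ends within 50 bases of the coding part, so a miss does not show that a gene lacks the element. The sequence lines below show the stem-loop in capitals with 5 bases on either side, for the highest gene of each class whose model has one and for the next lower genes of classes H2A and H4, to show which bases are common to the classes and which are not.
H1f2 (H1): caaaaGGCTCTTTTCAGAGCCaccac
H2bc6 (H2B): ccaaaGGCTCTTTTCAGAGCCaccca
H2ac6 (H2A): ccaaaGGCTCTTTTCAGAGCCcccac
H2ac19 (H2A): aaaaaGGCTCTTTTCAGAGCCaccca
H3c4 (H3): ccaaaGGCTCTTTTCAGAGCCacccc
H4c9 (H4): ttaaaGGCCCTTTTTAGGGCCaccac
H4c3 (H4): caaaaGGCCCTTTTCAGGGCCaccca
Hist1h4n (H4): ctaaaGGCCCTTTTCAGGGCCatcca

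The 16-base element was the same in H1f2, H2bc6, H2ac6, H2ac19 and H3c4, a form found in 26 genes of classes H1, H2A, H2B and H3 and in none of class H4. H4c3 and Hist1h4n share another form, found in 7 genes, all of class H4. H4c9 has a form shared by 2 H4 genes. Past the stem-loop the annotated models differ. The H1f2 model runs 840 bases beyond it, H2ac6 2010, H2bc6 1861, H3c4 752, H4c3 454 and H4c9 330 bases, whereas that of H2ac19 ends 35 bases and that of Hist1h4n 31 bases beyond it. A poly(A) signal (AATAAA, or its common variant with a T at the second place) within 40 bases of a model's end was found in 17 of the 70 genes. The most abundant gene, H2bc4, had none there, and neither had H2ac6, Hist1h4n and H4c3. In capitals below is the signal at the end of a model of the other 3 of the 4 most abundant genes.
H1f2: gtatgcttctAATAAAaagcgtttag
Hist1h2bq: aagaatattaAATAAAtttgtttctt
H4c9: ttctgtttacATTAAAagtattctat

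The signal begins 26 bases before the end in H1f2, 27 in Hist1h2bq and 21 in H4c9. The models of H2bc4 and Hist1h2bq, genes of class H2B, hold no stem-loop. The H2bc4 model has 2 exons, its coding exon stops 12 bases after the coding part (the stop codon counted among them) and the transcript continues in an exon further downstream. Hist1h2bq has 3 models, of 381, 1254 and 2015 bases with up to 3 exons. Models of more than 1 exon exist for 5 of the 70 genes.

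The 8 libraries held 15185218 to 22160394 estimated counts, and 13105 to 14255 genes were above 0. Mitochondrially encoded genes took 16.7% to 24.8% of the counts, the highest share being in WT 3. Of 12 platelet and megakaryocyte markers, all were present, with a summed share of 4.36% to 5.42%, and Ptprc, which encodes CD45, had 4 to 27 counts. Markers of red cells summed to 2.07% of the counts in WT 1 and to 0.224% to 0.51% in the other libraries, and those of hepatocytes to 0.00175% to 0.141% in WT and 0.000277% to 0.0139% in Dnmt3a+/- libraries. Dnmt3a had 332, 408, 315 and 279 counts in WT 1 to 4 and 151, 186, 399 and 450 in Dnmt3a+/- 1 to 4, so the labels overlapped. Its log2 fold change, Dnmt3a+/- minus WT, was -0.31 ± 0.25 (SE; edgeR quasi-likelihood test, adjusted p = 0.998), so this gene's RNA did not separate the labels, and the libraries are named by label only.

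The 70 genes together held 464166 estimated counts, 0.308% to 0.422% of a library, and summed to 3443 ± 358 TPM (length-corrected transcript shares that sum to 1000000 in a library; SD, n = 8). In order from replicate 1 to 4 the sums were 4139, 3411, 3069 and 3204 TPM in WT and 3571, 3369, 3697 and 3086 TPM in Dnmt3a+/- libraries. The 2 ranges overlapped, and WT 1 was the highest library. In bulk RNA such a level cannot tell fewer platelets or cells carrying a transcript from less of it in each.

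Class H2B led in every library, with 56.6% ± 3.86 of the histone TPM (SD, n = 8), followed by H1 with 22.8% ± 4.27, H4 with 12.8% ± 1.06, H2A with 7.14% ± 0.545 and H3 with 0.619% ± 0.0884. That order held in all 8 libraries. By share of estimated counts, which favours long transcripts, H2B and H1 stayed first and second with 53.5% and 29.4%, but H2A, at 10.6%, stood above H4, at 6.02%. Summed H2B TPM was 7.96 ± 0.837 times that of H2A, its partner in the H2A-H2B dimer of the nucleosome (SD, n = 8). H4 was 20.9 ± 2.18 times H3, although both proteins enter the nucleosome in equal numbers. Both ratios compare polyadenylated RNA, not protein, and leave out mRNAs without a poly(A) tail and the replication-independent variants. These ratios ranged from 6.77 to 9.17 and from 18.1 to 25.4 over the libraries.

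**Figure D1:**
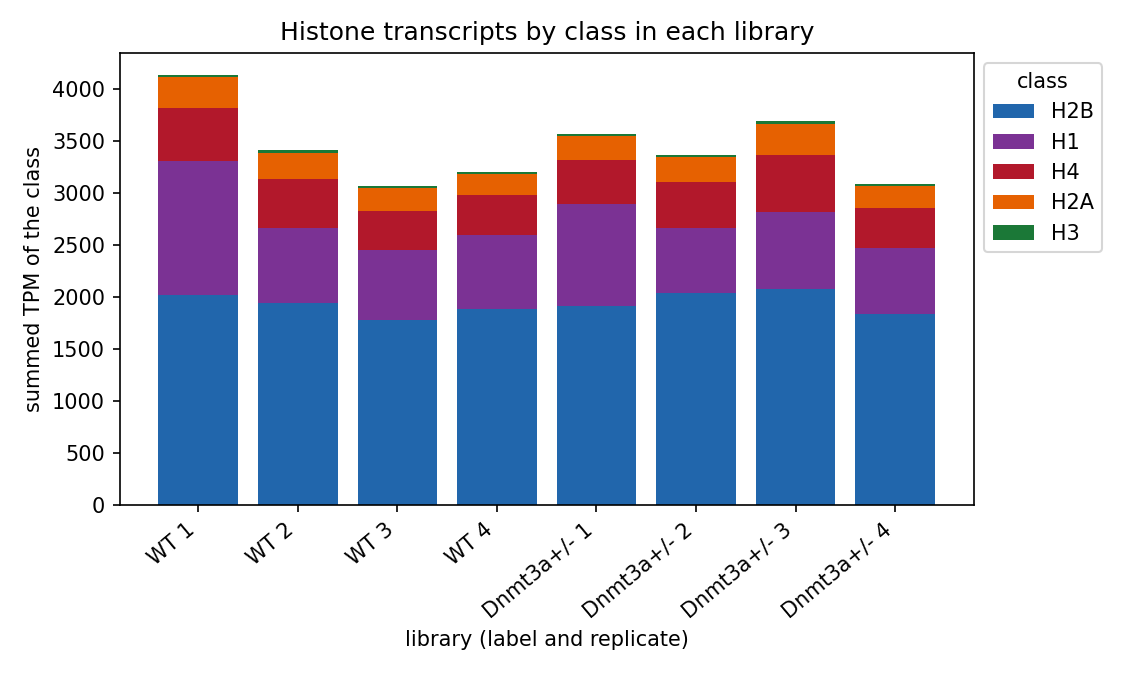
Summed TPM of the histone genes by class (colours, stacked) in each of the 8 libraries. H2B is the largest part of every bar, H1 is largest in WT 1, and H3 is a thin band at the top.

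Few genes made up most of each class. H2bc4 alone gave 44.3% of the mean histone TPM, H2bc4 and H1f2 together 67.3%, the first 5 genes 86.1%, the first 10 97.2% and the first 15 99.3%. Only 20 of the 70 genes averaged at least 1 TPM, 13 at least 10 TPM and 7 at least 100 TPM. No count was listed in any library for 22 genes: 13 of 20 H2A, 3 of 19 H2B, 3 of 12 H3, 2 of 13 H4 and 1 of 6 H1 genes. By annotated model, they were 12 of 16 genes ending with the coding part, 6 of 20 ending at the stem-loop and 2 of 26 running past it. The rest were 2 of 3 pseudogenes without coding annotation, and 0 of 5 longer models without a stem-loop. Some, such as H2ac12 and Hist1h2ap, share most of their sequence with another gene, so a 0 does not show a silent gene.

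**Figure D2:**
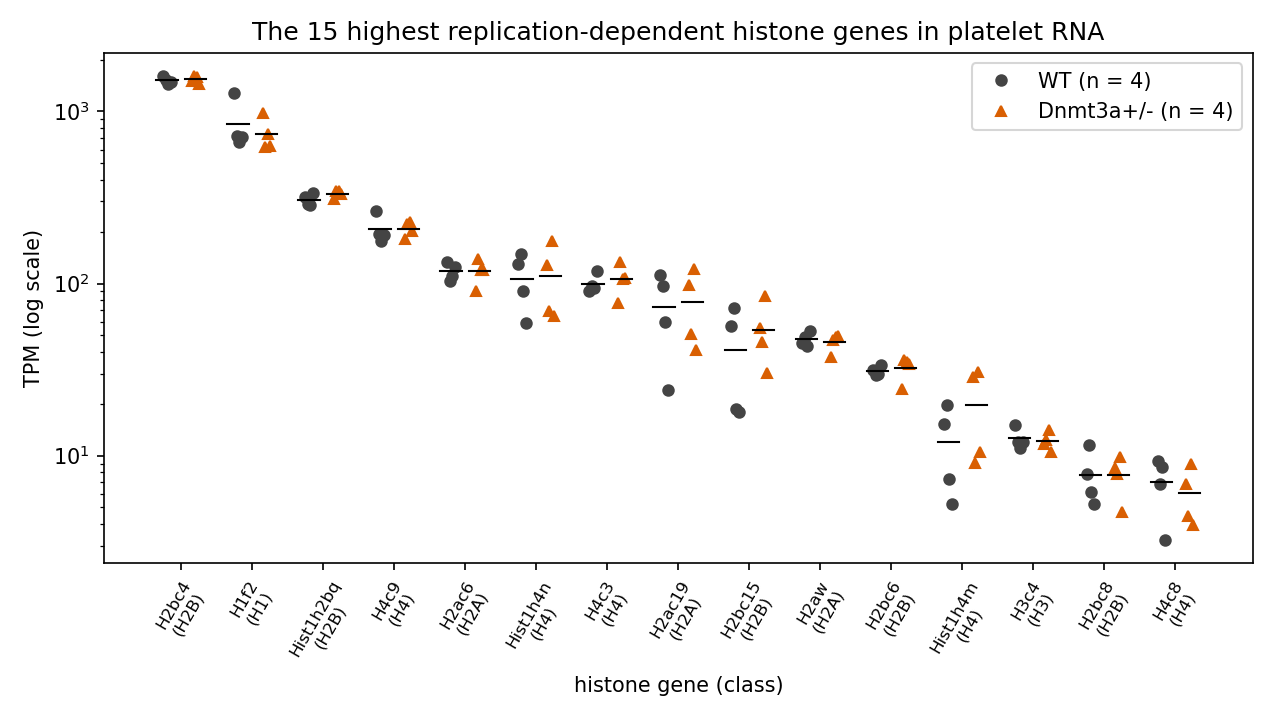
TPM of the 15 highest histone genes on a log scale, ordered by mean, with 1 point per library (circles WT, triangles Dnmt3a+/-) and lines at the mean of each label. H2bc4 stays between 1436 and 1601 TPM in all 8 libraries, whereas Hist1h4n, H2ac19, H2bc15 and Hist1h4m spread widely within both labels.

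H2bc4 encodes an H2B and lies on chromosome 13 from 23684199 to 23692908 on the plus strand. Its TPM in WT 1 to 4 was 1598, 1530, 1440 and 1488, and in Dnmt3a+/- 1 to 4 it was 1506, 1601, 1593 and 1436. The highest library exceeded the lowest 1.12-fold, and the gene stood at place 79 to 88 among all genes by TPM.

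Hist1h2bq, the next H2B gene (chromosome 13, 21806612 to 21810197, minus strand), had 318.9, 289.6, 285.5 and 335 TPM in WT 1 to 4. In Dnmt3a+/- 1 to 4 it had 307.8, 345.9, 344 and 332.7 TPM. The libraries were again close together, and the gene held place 3 in all 8. Of the 75-base windows of its longest model, 95.9% also occur in Hist1h2br, so the split of reads between these genes is uncertain. Hist1h2br was listed at 0.568 TPM on average and the sum of both genes ran from 286.1 to 346.1 TPM.

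Lower H2B genes were H2bc15, H2bc6 and H2bc8. H2bc15 had 56.7, 71.7, 18.7 and 18 TPM in WT 1 to 4 and 55, 45.5, 85 and 30.2 TPM in Dnmt3a+/- 1 to 4. Unlike H2bc4 it varied 4.71-fold, with WT 3 and WT 4 lowest. H2bc6 ranged from 24.5 to 35.9 TPM, with Dnmt3a+/- 1 lowest, and H2bc8 from 4.69 to 11.6 TPM.

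H1f2, the linker histone H1.2 (chromosome 13, 23738808 to 23740367, plus strand), was second in every library. It had 1285, 723.3, 667.1 and 712.6 TPM in WT 1 to 4, and 982.7, 621.3, 738.8 and 627.8 TPM in Dnmt3a+/- 1 to 4. WT 1 stood well above the other 7 libraries, and Dnmt3a+/- 1 came next. The same 2 libraries had the highest summed shares of the red cell markers, 2.07% and 0.51% of the counts. Of 14 red cell markers 13 were in the tables and none was at 0 in every library; the alpha globin gene Hba-a2 had 16102 TPM in WT 1 and 1952 to 3766 TPM elsewhere. The part of red cell RNA in the H1f2 level was not tested. Without WT 1 the H1 class held 21.7% of the histone TPM. The other H1 genes were near 0: H1f4 averaged 0.292 TPM (3 to 11 counts per library) and H1f3 0.228 TPM (12 to 40 counts), and the 5 H1 genes other than H1f2 summed to 0.33 to 0.92 TPM.

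H4c9 led class H4 (chromosome 13, 22040636 to 22041362, minus strand) and held place 4 among histone genes in each library. Its level was 264.9, 195.2, 177.5 and 191.4 TPM in WT 1 to 4 and 181.6, 222.3, 228.2 and 200.6 TPM in Dnmt3a+/- 1 to 4. WT 1 was highest and WT 3 lowest. H4c3, with 90.3, 96.2, 94.3 and 119 TPM in WT 1 to 4 and 77.1, 132.9, 106.2 and 107.9 TPM in Dnmt3a+/- 1 to 4, was likewise within a factor of 1.72 over the libraries.

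Hist1h4n had a mean of 108.5 TPM, close to that of H4c3, but another spread. In WT 1 to 4 it was at 129.8, 148.2, 90 and 59.3 TPM and in Dnmt3a+/- 1 to 4 at 128.3, 69.6, 177.7 and 64.8 TPM. Its highest library exceeded its lowest 3-fold, and it changed places with H2ac6 and H4c3 from library to library. Hist1h4m ranged from 5.21 to 30.7 TPM and H4c8 from 3.23 to 9.35 TPM. Hist1h4n and Hist1h4m share 82% and 89% of their windows with each other, and their sum still ran from 64.5 to 208.5 TPM.

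Of the H2A genes, H2ac6 (chromosome 13, 23681467 to 23683948, minus strand) was highest on average, with 133.9, 103.2, 110.4 and 124.8 TPM in WT 1 to 4. Dnmt3a+/- 1 to 4 had 90.8, 139.6, 120.3 and 119.4 TPM. The lowest value was in Dnmt3a+/- 1 and the highest in Dnmt3a+/- 2, so the labels overlapped fully. The ranges of H2ac6, Hist1h4n and H4c3 overlap one another, and their order is not fixed.

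H2ac19 (chromosome 3, 96239749 to 96240276, minus strand) had 112.5, 96.2, 59.8 and 24 TPM in WT 1 to 4 and 98.4, 51, 121.6 and 41.1 TPM in Dnmt3a+/- 1 to 4, a 5.07-fold range. All of its windows also occur in the model of H2ac18, which was listed at 0 in every library, and the division of reads between them cannot be read from these values. H2aw, a Hist3 gene on chromosome 11, stayed between 37.3 and 53.3 TPM, and 30.6% of its windows also lie in models of the gene Trim17.

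Class H3 was scarce. H3c4 (chromosome 13, 23575763 to 23577011, plus strand) had 15.1, 12.1, 11.1 and 12 TPM in WT 1 to 4 and 11.6, 12.3, 14.1 and 10.5 TPM in Dnmt3a+/- 1 to 4. It exceeded the sum of the other 11 H3 genes, 4.81 to 14.6 TPM, in each library but Dnmt3a+/- 3. H3c11 came next, with 1.58 to 9.5 TPM. The H3 genes H3c14, H3c15 and H3c13 share 100%, 62.6% and 78.5% of their windows with Gm20634, so their listed levels are uncertain.

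The replication-independent H3 variant H3.3, which is made outside S phase and from polyadenylated mRNA, was far higher than the whole of class H3. H3f3a had 2014, 2398, 2211 and 2538 TPM in WT 1 to 4 and 2128, 3420, 2598 and 2860 TPM in Dnmt3a+/- 1 to 4. That was 122 ± 36 times the summed H3 class (SD, n = 8; range 81.7 to 187). H3f3b, the other H3.3 gene, ranged from 57.5 to 122.8 TPM, 4.04 ± 1.26 times the class. For H2A the order was the opposite: H2az1, the gene of the variant H2A.Z, ranged from 62.3 to 119.5 TPM, or 0.348 ± 0.0893 of the summed H2A class.

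Transcripts of Slbp, which binds the stem-loop of histone mRNA, and of genes of dividing cells were low. Slbp had 2 to 11 counts per library. The proliferation marker Mki67 had 10 to 57 counts and Top2a, a topoisomerase of dividing cells, 2 to 24. Pcna, the replication clamp, and E2f1, an S phase transcription factor, were the highest of 30 S phase and division genes at 4.16 and 1.5 TPM on average. Of 34 genes for histone mRNA transcription, processing and decay, the highest were Pabpc1, the cytoplasmic poly(A) binding protein, at 508.3 TPM and Tut7, a terminal uridyltransferase that takes part in histone mRNA decay, at 14.5 TPM. Nap1l1 and Nap1l4, chaperones of H2A and H2B, led the 20 chaperone genes at 264.9 and 13.4 TPM.

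Histone genes with short annotated models varied more between libraries than those with longer ones. In 36 genes the model ends within 50 bases of the stem-loop or with the coding part, and in 34 genes it is longer or, for 3 pseudogenes, has no coding annotation. The first group was at 338.9, 361.7, 197.7 and 118.8 TPM in WT 1 to 4 and at 334.4, 193.4, 450.1 and 156.5 TPM in Dnmt3a+/- 1 to 4. Dnmt3a+/- 3 was highest and WT 4 lowest, a 3.79-fold range with a coefficient of variation of 43.7%. The second group lay between 2872 and 3800 TPM, a 1.32-fold range with a coefficient of variation of 9.03%.

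Single genes showed this too. Among the 8 genes of the first group with a mean of at least 10 counts, the highest library exceeded the lowest by 2- to 6.01-fold, with a median of 4.43. For 13 longer genes with such a mean and above 0 in every library the range was 1.12- to 3.45-fold, with a median of 1.54, and the groups overlapped. Left out of these were H3c14 and Hist1h2br, longer genes with such a mean but a library at 0, which have no such fold. They varied most of the longer genes, with an SD of 1.41 and 0.604 times the mean TPM. In the 8 short-model genes the SD was 0.277 to 0.614 times the mean. Between 2- and 3.45-fold lay the short-model genes H2bc11 (2), H4c8 (2.89) and Hist1h4n (3) and the longer genes H1f2 (2.07), H2bc8 (2.46) and H1f3 (3.45). Low counts widen such ranges. With a mean of at least 100 counts, Hist1h4n, H2ac19 and H2bc15 ranged 3- to 5.07-fold, and 9 longer genes 1.12- to 2.07-fold.

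**Figure D3:**
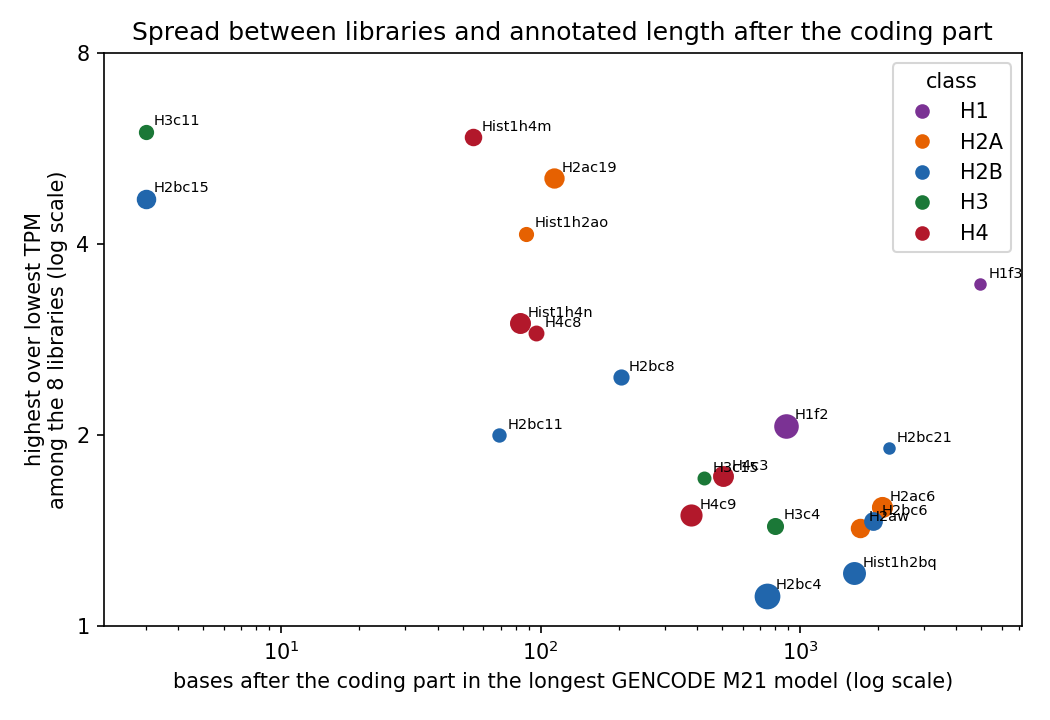
Highest over lowest TPM among the 8 libraries (vertical, log scale) against the bases after the coding part in the longest model (horizontal, log scale, stop codon included) for histone genes with a mean of at least 10 counts and no library at 0, coloured by class, with larger points for higher mean TPM. The genes with the widest ranges, H3c11, Hist1h4m, H2ac19 and H2bc15, have 3 to 112 bases after the coding part, as does the narrower H2bc11, and H2bc4 and Hist1h2bq, with 745 and 1611 bases, lie lowest.

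The 8 short-model genes also moved together across libraries. WT 2 and Dnmt3a+/- 3 were above the gene's own mean for 8 of 8 genes, WT 4 and Dnmt3a+/- 4 for 0 of 8. Of the 15 longer genes with a mean of at least 10 counts, WT 2 was above the gene's mean for 5, Dnmt3a+/- 3 for 11, WT 4 for 9 and Dnmt3a+/- 4 for 7. One of them, H2bc8, had the pattern of the short-model genes, with log2 ratios to its mean of 0.58 in WT 2, 0.35 in Dnmt3a+/- 3, -0.56 in WT 4 and -0.72 in Dnmt3a+/- 4. Among the 8 short-model genes, Dnmt3a+/- 3 was the highest library for 6 and WT 4 the lowest for 5. Libraries of both labels were thus at either extreme. These genes share much of their coding sequence within a class, so they are not independent of each other.

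**Figure D4:**
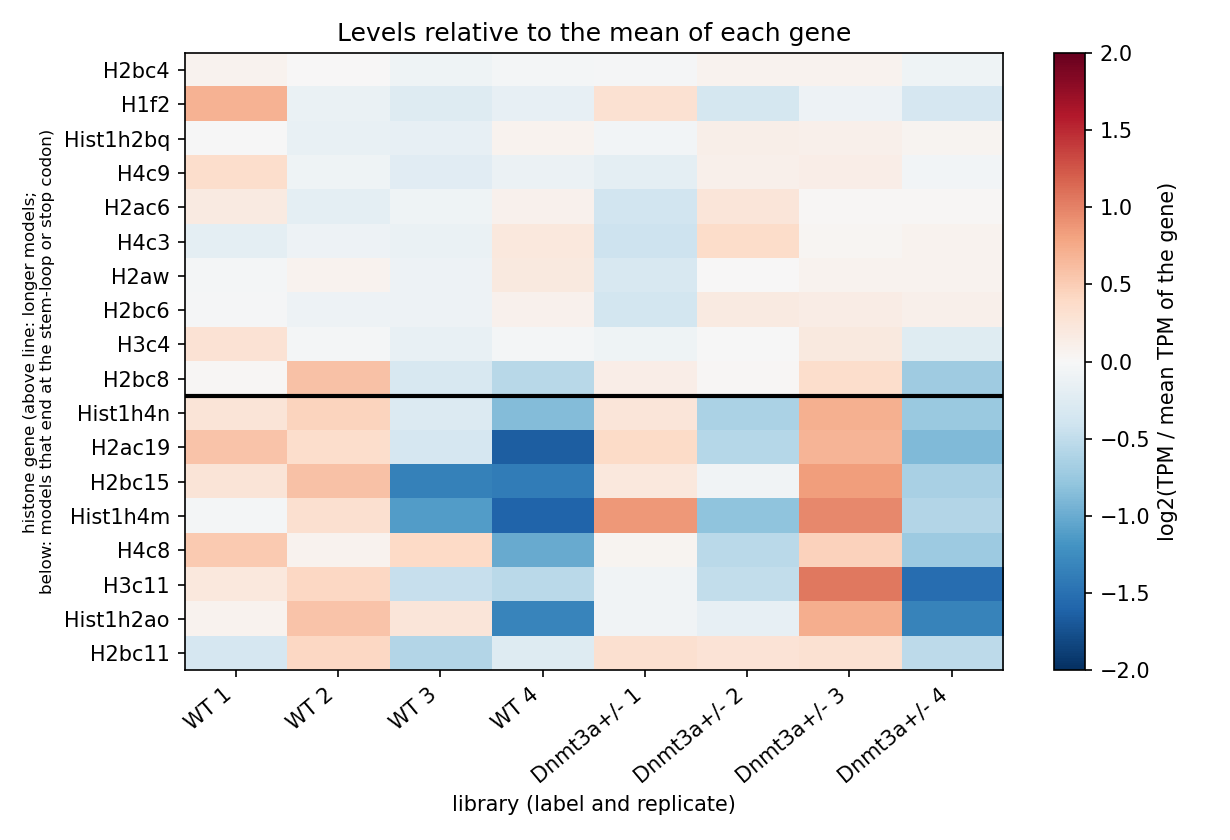
Level of histone genes in each library relative to the gene's mean, as log2 of the TPM ratio (red above, blue below). The upper rows are the 10 most abundant genes with longer models and the lower rows the 8 genes whose model ends at the stem-loop or the coding part; the lower rows are red in WT 2 and Dnmt3a+/- 3 and blue in WT 4 and Dnmt3a+/- 4.

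Histone genes are arranged head to head in their clusters, and 14 pairs of the 70 genes start within 500 bases of each other on opposite strands, each an H2A gene with an H2B gene. At least 1 gene of the pair averaged 1 TPM or more in 6 pairs, and both did in 3. H2ac6 and H2bc4 start 250 bases apart, and H2bc4 was 12.9-fold higher by mean TPM (11.5- to 16.6-fold over the libraries). Hist1h2bq and Hist1h2ao start 267 bases apart, with 74.2-fold more of the H2B gene as listed (45.4- to 194.6-fold). Hist1h2ao had 7 to 35 counts per library, and 93.1% of its windows also occur in Hist1h2ap. Hist1h2ap is the head-to-head partner of Hist1h2br, which shares most windows with Hist1h2bq, so reads cannot be assigned to 1 of these pairs with certainty. H2bc8 was 6.6-fold higher than H2ac8, 175 bases away, as listed (4.48- to 11.6-fold). Of the H2bc8 windows, 42.5% also occur in the far more abundant H2bc4, and H2ac8 had 7 to 13 counts per library. By the listed values the H2B gene was thus the higher one in these 3 pairs. Of the other pairs with 1 gene at 1 TPM or more, H2bc11 and H2bc15 were above their H2A partners, whereas the H2A gene H2aw, at 46.7 TPM, was above the pseudogene H2bu1-ps, at 0.215 TPM. In a pair below 1 TPM, H2ac7 at 0.845 TPM was above H2bc7 at 0.723 TPM.

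The sequence between H2ac6 and H2bc4 is shown because these genes share it and differ in level. It is the RefSeq promoter window of H2ac6 (GRCm38.p6, chr13:23683910-23684209, minus strand, so that H2ac6 starts near its right end and H2bc4 reads out of its left end on the other strand). Capitals mark, on either strand, the CCAAT box, the TATA box searched as TATAAA, and the octamer motif searched as ATTTGCAT.
H2ac6 and H2bc4: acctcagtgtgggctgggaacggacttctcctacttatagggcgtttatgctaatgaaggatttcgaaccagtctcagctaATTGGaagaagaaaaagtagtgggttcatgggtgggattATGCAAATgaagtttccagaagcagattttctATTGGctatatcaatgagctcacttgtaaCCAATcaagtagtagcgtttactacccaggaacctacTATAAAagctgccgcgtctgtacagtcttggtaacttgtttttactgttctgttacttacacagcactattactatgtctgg
The corresponding window of Hist1h2bq (chr13:21810150-21810449, minus strand), which faces Hist1h2ao, and that of H1f2 (chr13:23738557-23738856, plus strand) follow.
Hist1h2bq: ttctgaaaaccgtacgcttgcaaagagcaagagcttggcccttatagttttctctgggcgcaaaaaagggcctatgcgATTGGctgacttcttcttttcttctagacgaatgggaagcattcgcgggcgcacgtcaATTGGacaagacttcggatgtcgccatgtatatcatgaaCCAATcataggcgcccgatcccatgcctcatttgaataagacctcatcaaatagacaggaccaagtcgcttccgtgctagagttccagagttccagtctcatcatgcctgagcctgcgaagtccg
H1f2: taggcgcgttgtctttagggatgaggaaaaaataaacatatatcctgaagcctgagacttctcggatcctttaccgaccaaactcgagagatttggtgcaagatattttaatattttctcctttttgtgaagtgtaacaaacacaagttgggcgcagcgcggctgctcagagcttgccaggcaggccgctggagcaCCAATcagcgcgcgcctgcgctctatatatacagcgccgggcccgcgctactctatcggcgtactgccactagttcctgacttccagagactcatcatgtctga

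The window of H2ac6 and H2bc4 holds 3 CCAAT motifs, a TATAAA and an octamer, that of Hist1h2bq 3 CCAAT motifs and neither of the others, and that of H1f2 1 CCAAT. RefSeq windows were found for 62 of the 70 genes (63 windows of 300 bases). CCAAT on either strand was present in 85.7% of them, against 37.4% of all 32851 windows, TATAAA in 55.6% against 13.6%, and the octamer in 22.2% against 1.74%. By class, CCAAT was in every window of H1, H2A, H2B and H3 genes and in 25% of the 12 H4 windows, and the octamer was found in 38.9% of H2A and 41.2% of H2B windows and in no other class. Windows of head-to-head H2A and H2B genes can overlap, as those of H2ac8 and H2bc8 do, so the same motif copy can count in both classes. The windows are thus not all separate sequences. These motif counts include genes at 0 and describe the sequence, not the use of a promoter.

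Between the labels, no histone gene was called different. Of the 70 genes, 22 passed the filter on low counts and were tested. None had an adjusted p under 0.05 (edgeR quasi-likelihood test, Benjamini-Hochberg over all 7362 genes tested), where 0% of all genes did. At an unadjusted p under 0.05 there were also 0 of 22, against 4.92% of all genes (1.73% higher and 3.19% lower in Dnmt3a+/-). The values of the labels did not overlap for 0 of 22, against 2.54% of all genes tested, and in TPM the labels overlapped for 15 of the 15 highest genes. With no filter on low counts 0 of 48 histone genes were called, where 1.35% of all genes were, and DESeq2 called none of them and 0.164% of all genes. Log2 fold changes, Dnmt3a+/- minus WT, were above 0 for 9 and below 0 for 13 histone genes, with a median of -0.03 beside -0.005 over all genes. Of 12 hepatocyte markers 11 were tested, and 11 were lower in Dnmt3a+/- at an unadjusted p under 0.05 (none at an adjusted p under 0.05), with a median log2 fold change of -3.77. Their part in the histone comparison was not tested.

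H2bc4 had a log2 fold change of -0.03 ± 0.10 (SE), Hist1h2bq of 0.06 ± 0.10 and H2aw of -0.11 ± 0.10, the narrowest errors of the set. H4c9 and H2ac6 both lay at -0.05 ± 0.14. For H1f2 it was -0.23 ± 0.23, and without WT 1 it was 0.05. The widest differences were those of Hist1h2br, -1.11 ± 0.64, and Hist1h4m, 0.69 ± 0.50, both genes that share most of their sequence with another. Adjusted p for the 22 genes was 0.998 to 0.999 by edgeR's test. In simulated data of this design the test recovered 50% of genes changed 2-fold and 11.3% of those changed 1.5-fold over all 7362 genes; recovery was not split by level or spread, so these shares are not those of a single histone gene.

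**Figure D5:**
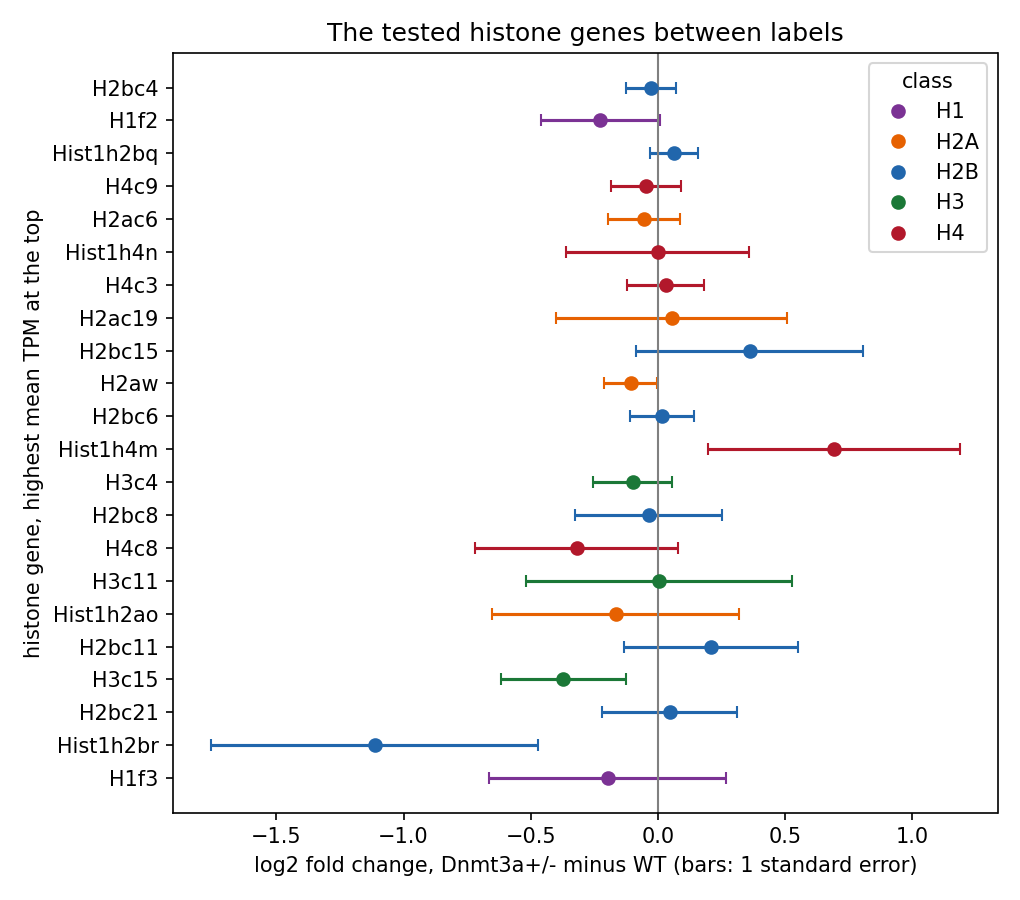
Log2 fold change, Dnmt3a+/- minus WT, of the 22 tested histone genes (points, coloured by class) with 1 standard error, ordered by mean TPM from the top. The abundant H2bc4 and Hist1h2bq sit close to 0 with short bars, and Hist1h2br and Hist1h4m lie farthest from 0 with long ones.

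No gene of the companion lists was called either. None of the 9 tested replication-independent variants, 20 histone mRNA factors, 7 S phase genes and 14 chaperones had an adjusted p under 0.05, and their median log2 fold changes were 0.14, 0.02, -0.08 and -0.14. H3f3a was at 0.20 ± 0.14, H2az1 at 0.15 ± 0.16 and H3f3b at 0.26 ± 0.17 (SE). Rrm1, a subunit of ribonucleotide reductase, at -0.81 ± 0.29, and Hjurp, the chaperone of the centromeric H3 variant, at -0.82 ± 0.30, were the genes of these lists with an unadjusted p under 0.05, and their adjusted p was 0.765 and 0.789 by edgeR's test. Over all genes tested, 4.92% had an unadjusted p under 0.05 by that test, 3.19% being lower in Dnmt3a+/-.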

How the data were processed

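Estimated counts and TPM per gene were deposited by the authors for 8 libraries of polyadenylated platelet RNA; the tools named in the submitters' processing notes, without role or version, are RSEM, STAR, cutadapt and DESeq2, and the build is mm10. The deposited estimated counts are whole numbers, and deposited TPM sum to 1e+06 per library. Dividing counts by TPM gave the GENCODE M21 model length for single-model genes (H2bc4, 1156 bases), so TPM rest on those models, and reads of near-identical genes were divided by estimation. The sources used here do not say how counting used strand, so reads of overlapping genes cannot be told apart. Labels call the libraries biological replicates.

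Levels and shares were computed from TPM without tests. Counts of 15185218 to 22160394 per library were tested with edgeR 4.0.16 (R 4.3.3; TMM, filterByExpr with a minimum count of 10, quasi-likelihood test over all 7362 genes, threshold 0.05). The test was tried on simulated data in 3 runs. Libraries of 1 label differed by more than sampling noise (chi-square per degree of freedom at least 13.3). A count of 0 allows 3 counts, or 0.135 to 0.198 CPM, and covers counting error only. Alternatives used RLE and upper-quartile factors, no filter, DESeq2 1.42.0, limma 3.58.1 on log2(TPM + 0.1), a replicate block, each library left out, counts without mitochondrially encoded genes, counts in place of TPM, no pseudogenes and 1 stem-loop mismatch. Named genes were the 15 highest members, the 2 highest of each class, the 3 highest variants, the 2 highest of each companion list, those with an unadjusted p under 0.05, and Slbp, Mki67, Top2a and Dnmt3a. Further tested members were named after their values were seen. Members and lists were chosen with earlier results of these data known. Promoter windows are from RefSeq (GRCm38.p6), stem-loops from GENCODE M21 transcripts.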

Additional observations from a re-analysis of the deposited data

Results flagged for a closer look

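In groups of 4 libraries, a library was singled out when its gap to the nearest other divided by the group's range exceeded Dixon's 95% critical value, which chance does in about 1 of 20 groups; of 54 groups examined, 4 met it (7.41%). H1f2 in WT 1 was at 1285 TPM with the next WT library at 723.3, and the summed class H1 in WT 1 was at 1286 TPM, which is the same signal. The red cell marker share of WT 1 was 2.07% of the counts, with the next WT library at 0.333%. H2bc6 in Dnmt3a+/- 1 was low, at 24.5 TPM with the next library of that label at 34.1. Any link between these values was not tested.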

How the results depend on the processing

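No histone gene had an adjusted p under 0.05 in any setting tried. Over all genes the count called was 0 with edgeR, RLE or upper-quartile factors, limma, and without mitochondrially encoded genes, but 250 with no filter on low counts, 15 with DESeq2 and, leaving out 1 library at a time, 0 to 135, with 135 without WT 1 and 1 without Dnmt3a+/- 2; the cause was not tested. Log2 fold changes near 0 changed sign: with limma H2bc4 was at 0.0184 and H4c9 at 0.0185. Leaving out 1 library at a time, H2bc4 ranged from -0.0687 to 0.0219 (above 0 without WT 1, WT 3 or Dnmt3a+/- 4), H1f2 from -0.406 to 0.0519 (above 0 without WT 1), Hist1h2bq from -0.00621 to 0.0958 (below 0 without WT 2), H4c9 from -0.116 to 0.096 and H2ac6 from -0.155 to 0.0433 (both above 0 without WT 1 or Dnmt3a+/- 1).

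Deviations from the label means correlated at -0.04, 0.08, 0.16 and -0.17 between libraries of the same replicate number. Of the WT libraries WT 3 alone correlated best with its own number. The best correlations with any partner were also low, 0.13 to 0.23, so the check showed no pairing by number but cannot exclude one. With the replicate block 0 histone genes and 0 of all genes were called, H1f2 alone had an unadjusted p under 0.05, and its log2 fold change was -0.20.

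By counts in place of TPM the shares were H1 29.4%, H2A 10.6%, H3 0.491%, H4 6.02% and H2bc4 40.9%, because TPM divides by length. Rescaled without mitochondrially encoded genes, the sum was 4333 TPM. With the 9 genes that carry the old symbol in the tables, an alternative chosen after seeing the data, the sum was 449.6 TPM, with shares of H1 0%, H2A 0.941%, H2B 72.1%, H3 0% and H4 26.9%. Leaving out 1 library at a time, the sum ran from 3344 to 3497 TPM, the H1 share from 21.7% to 23.5% and the H2B share from 56% to 57.7%. No sum or share moved by more than its SD, but dropping 1 library cannot move a mean that far. The pseudogenes held 0.215 TPM in all, too little to move a sum or share by its SD. Neither comparison can therefore show that the levels are stable. Allowing 1 mismatch left 46 genes with a stem-loop. Counts limit the scarce genes: 22 were at 0, and between 6.53% and 100% of their windows occur in no other gene.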

Other observations

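Members outside the 15 highest added little. Hist1h2ao ranged from 1.71 to 7.1 TPM, H2bc11 from 1.89 to 3.78, H3c15 from 1.72 to 2.94 and H2ac8 from 0.73 to 1.66. H3c14, whose windows all occur in other genes, was listed at 0 in 5 libraries, and its sum with H3c15 was 1.76 to 3.77 TPM. Members at 0 in every library included H1f6, H2ac1 and H2bc1, whose products are known from the testis, and H2ac21, with 91.1% of its windows found in no other gene.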
